A study of Mus musculus with 15 samples.

Results

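Forebrain RNA of mice labelled IR-BMT was compared with that of mice labelled PLX 3x treated, whose library names carry the suffix CD0. The comparison rests on 6 libraries of the 15 in the series, 3 a side, chosen by their column names in the deposited count table. All 15 libraries came from dissected, snap-frozen forebrain of wild-type (WT) mice. The other 3 groups are untreated mice (NT), mice labelled PLX 1x treated, and a second PLX 3x group whose library names carry CD30. NT and PLX 3x CD30 are used below as reference levels. The labels state no strain, sex, age, dose, duration or interval, and do not spell out PLX, 1x, 3x, CD0, CD30 or IR-BMT. In this field PLX prefixes code names of inhibitors of the CSF1 receptor, and IR-BMT usually stands for irradiation followed by transplantation of bone marrow. The labels name no donor strain or marker for marrow cells, so the origin of a transcript cannot be read from these libraries. The series is about macrophages derived from monocytes of the blood and the skull marrow that engraft the brain. The question of this comparison is how the macrophage transcripts of IR-BMT brains, and the rest of the brain transcriptome, differ from those of brains labelled PLX 3x CD0. Nothing in the labels says whether the 3 libraries a group came from different mice, so p-values measure the spread between libraries, which may be technical.

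Microglia are the resident macrophages of the brain parenchyma. They settle there before birth and renew themselves locally, and their survival depends on signalling by the CSF1 receptor, so that inhibitors of this receptor empty much of the niche. Border-associated macrophages occupy the meninges, the perivascular spaces and the choroid plexus. Under some conditions that leave the niche open, cells from the bone marrow can enter the brain, where they take on many microglial features while they keep a transcript profile of their own.

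The IR-BMT libraries held 33304212 to 39549891 counts and the PLX 3x CD0 libraries 50176542 to 54801136. Brain markers were abundant in all 6, with neuronal Camk2a at 1339 to 2205 CPM (counts scaled to normalised library size) and myelin Mbp at 2759 to 3068. Of 21780 genes tested with edgeR's quasi-likelihood test, 4687 (21.5%) passed a Benjamini-Hochberg adjusted p of 0.05, which is the threshold used throughout. Of these, 2195 (10.1% of the genes tested) were higher in IR-BMT and 2492 (11.4%) were lower. Changes of at least 2-fold were mostly in one direction, with 298 genes higher and 72 lower, and the median log2 difference over all genes was -0.02. A second property of the libraries ran with the calls. The log2 difference followed the GC content of the transcripts (Spearman rho 0.626 across 13973 genes, which are not independent replicates). In the lowest of 5 equal bands of genes (31.0 to 43.9% GC) 47.3% were called lower and 1.25% higher, while in the highest band (55.5 to 75.9% GC) 0.394% were called lower and 37.9% higher. With each library corrected for these 2 transcript properties, length and GC content (an offset in the model), rho was 0.045 and 1876 genes passed, 1154 higher and 722 lower, so that the share higher among the calls was 61.5% in place of 46.8%. Of the called genes, 1366 were called in the same direction in both fits and 1 in opposite directions. Of the calls of at least 2-fold, 227 of 298 higher and 29 of 72 lower were called with the offset, and of the 4317 calls under 2-fold, 1110. List counts below are given with and without the offset, and the part of GC content in single calls was not tested further. The shares of all genes to set beside them are 10.1% higher and 11.4% lower, and 5.30% and 3.31% with the offset. One library of each group, IR-BMT 1 and PLX 3x CD0 1, stood apart by transcripts of the choroid plexus: the summed level of its 11 markers was 344 to 1291 CPM in IR-BMT and 344 to 3539 CPM in PLX 3x CD0. None of the 11 passed the test. Without both libraries 3682 genes passed, 1664 higher and 2018 lower. Without IR-BMT 2 the count was 3029.

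**Figure D1:**
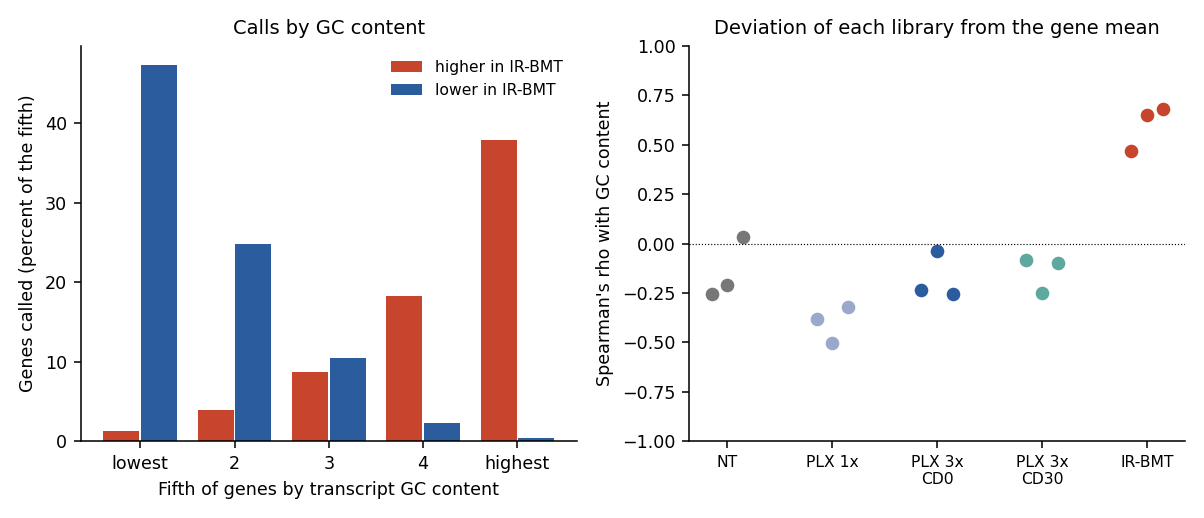
Left, the percent of genes called higher (red) or lower (blue) in IR-BMT than in PLX 3x CD0, in 5 equal bands of transcript GC content; right, Spearman's rho across genes between GC content and each library's deviation from the gene mean, 1 point a library. Calls lower make up 47.3% of the lowest band and calls higher 37.9% of the highest; the 3 IR-BMT libraries have rho of 0.469 to 0.682, and the 3 PLX 3x CD0 libraries -0.253 to -0.035.

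Genes shared by microglia and other macrophages were higher in IR-BMT than in PLX 3x CD0 almost without exception. Of 25 tested genes, 24 were higher and none lower, against 10.1% of all genes higher. The median log2 difference of the 25 was 2.79 (all genes -0.02). The count was 24 with the length and GC offset, 24 without each library in turn, and 24 without both libraries rich in choroid plexus transcripts. In bulk tissue, fewer cells of a type and less RNA per cell cannot be told apart.

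Csf1r, the receptor for CSF1 and IL-34 on which microglia depend, was at 48.8, 46.8 and 46.8 CPM in the 3 IR-BMT libraries and at 5.37, 10.6 and 3.58 CPM in the PLX 3x CD0 libraries. Each IR-BMT library was above each PLX 3x CD0 library, and PLX 3x CD0 2 was the highest of its group. The log2 difference was 2.86 ± 0.39 (SE, adjusted p = 0.000546). Cx3cr1, the fractalkine receptor (mm10 chr9:119901616-120069879, ENSMUSG00000052336), was at 37.3, 31.8 and 29.6 CPM in IR-BMT and 2.01, 3.36 and 1.46 CPM in PLX 3x CD0. The groups were far apart, with a log2 difference of 3.85 ± 0.37 (adjusted p = 6.38e-05). Trem2, a lipid-sensing receptor that signals through Tyrobp (chr17:48346401-48354147, ENSMUSG00000023992), was at 11.4, 11.9 and 9.37 CPM in IR-BMT and 1.46, 2.00 and 1.25 CPM in PLX 3x CD0. Its groups did not overlap and its adjusted p was the smallest of the list (log2 difference 2.79 ± 0.16, adjusted p = 7.95e-09). Tyrobp itself, the adaptor that carries the signal, differed by 3.49 ± 0.35 on the log2 scale (adjusted p = 2.75e-05).

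The transcription factors of the list moved with the surface genes. Spi1, which encodes PU.1, the factor that sets macrophage identity, was at 4.57, 3.84 and 4.09 CPM in IR-BMT and 0.203, 0.66 and 0.149 CPM in PLX 3x CD0. PLX 3x CD0 2 was again the highest of its group but stayed below each IR-BMT library. The log2 difference was 3.62 ± 0.44 (adjusted p = 5.78e-05), and it was 4.55 without PLX 3x CD0 2. Irf8, a partner of PU.1, differed by 1.83 ± 0.20, Runx1 by 1.65 ± 0.41 and Ikzf1 by 1.64 ± 0.26 (adjusted p = 8.21e-06, 0.00684 and 0.000181). The tetraspanin Cd53, found on leukocytes, had the largest difference of the list. It was at 5.39, 4.07 and 3.54 CPM in IR-BMT and 0.203, 0.272 and 0.205 CPM in PLX 3x CD0, with no overlap (log2 difference 4.24 ± 0.35, adjusted p = 6.67e-07). At the other end, the phosphatase gene Inpp5d (SHIP1) differed by 0.91 ± 0.12 (adjusted p = 5.21e-05). The 1 gene of the 25 that did not pass was Mertk, a receptor for apoptotic cells that astrocytes also express, at 45.7, 52.4 and 48.5 CPM against 43.0, 51.4 and 49.2 CPM (log2 difference 0.03 ± 0.07).

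**Figure D2:**
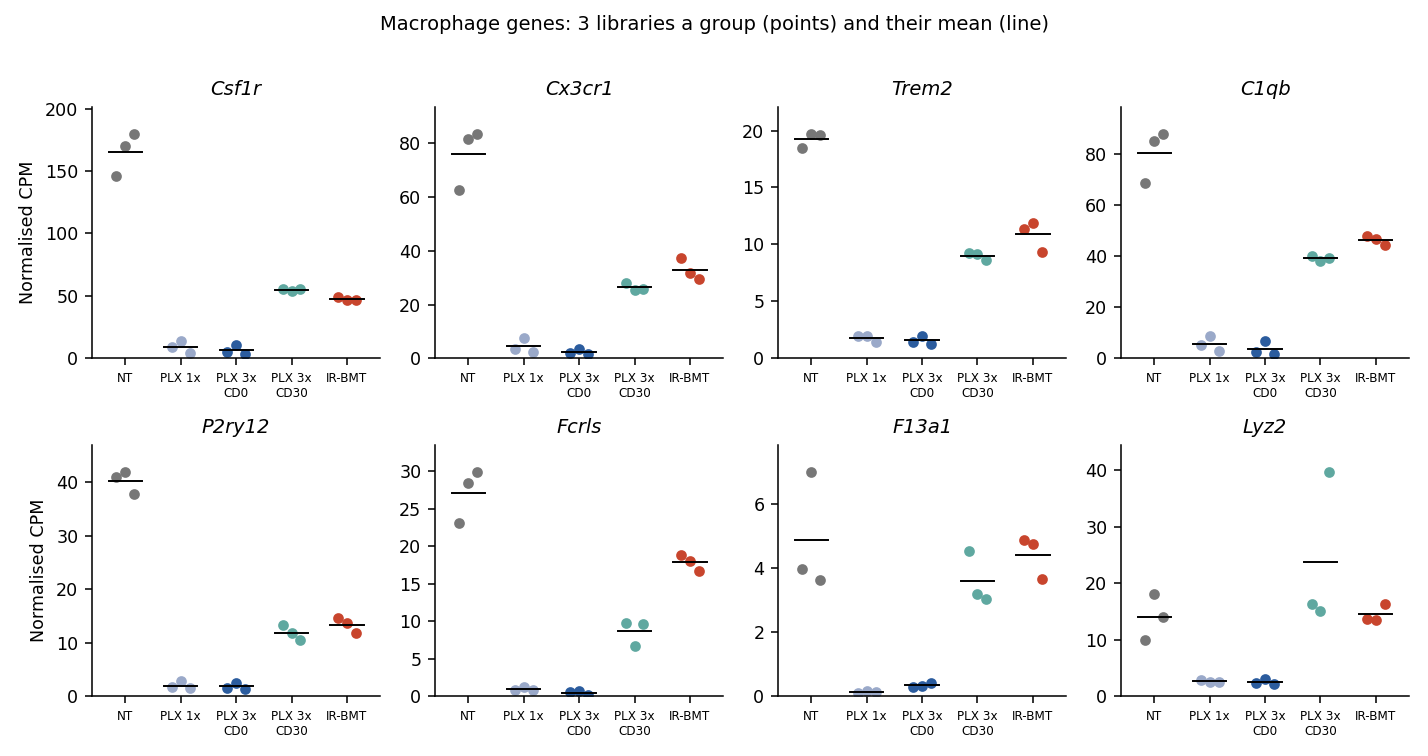
Levels of 8 macrophage genes in the 5 groups, in TMM-normalised CPM on linear axes that start at 0. Each point is 1 library and the line is the mean of 3; in all 8 panels the IR-BMT points lie above the PLX 3x CD0 points, and for Csf1r, Cx3cr1, Trem2, C1qb, P2ry12 and Fcrls they lie below the NT points.

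Since these genes moved together, their promoters were searched for a PU.1-type ETS motif, GAGGAAGT, on both strands of the 250 bases before the start in RefSeq (GRCm38.p6, the assembly of mm10). It was present in 802 of 32851 promoters (2.44%) and in 382 of 17098 promoters of tested genes (2.23%). Of the 25 macrophage genes 19 matched a promoter of the table and 1 of them, Inpp5d, held the motif. Its upstream sequence (chr1:87620062-87620311, plus strand) is shown with the motif in capitals, which begins 20 bases before the start. That of Trem2 (chr17:48346151-48346400, plus strand) is shown as the gene with the smallest adjusted p of the list; it holds no copy of these letters.
Inpp5d: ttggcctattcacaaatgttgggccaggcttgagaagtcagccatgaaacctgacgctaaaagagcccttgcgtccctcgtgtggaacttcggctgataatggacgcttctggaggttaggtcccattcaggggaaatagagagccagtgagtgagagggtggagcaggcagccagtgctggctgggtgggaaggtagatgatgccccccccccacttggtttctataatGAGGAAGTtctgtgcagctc
Trem2: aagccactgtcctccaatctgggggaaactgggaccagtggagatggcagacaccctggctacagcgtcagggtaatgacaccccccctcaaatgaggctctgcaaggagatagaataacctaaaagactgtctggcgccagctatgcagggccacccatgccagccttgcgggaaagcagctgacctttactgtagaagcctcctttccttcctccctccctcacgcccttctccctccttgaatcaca

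Genes more restricted to microglia among brain cells were also higher in IR-BMT. Of 15 tested, 12 were higher and none lower, with a median log2 difference of 2.80 (all genes -0.02, 10.1% higher). With the length and GC offset 11 were higher, Cst3 (cystatin C, which astrocytes also make) being the 1 that no longer passed.

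Fcrls, an Fc receptor-like gene (chr3:87250758-87263738, ENSMUSG00000015852), had the largest difference of all genes at an average log2 CPM of 1 or more. It was at 18.9, 18.1 and 16.8 CPM in IR-BMT and 0.608, 0.718 and 0.149 CPM in PLX 3x CD0, or 1886 counts against 75 in all. The groups were widely separated, with a log2 difference of 5.19 ± 0.31 (adjusted p = 3.83e-07). Siglech, a sialic acid-binding lectin (chr7:55768178-55778925, ENSMUSG00000051504), was at 7.73, 7.47 and 6.82 CPM in IR-BMT and 0.324, 0.485 and 0.187 CPM in PLX 3x CD0. It followed Fcrls in size, at 4.46 ± 0.30 (adjusted p = 1.26e-07). P2ry12, the ADP receptor that guides microglial processes (chr3:59216272-59262871, ENSMUSG00000036353), was at 14.6, 13.6 and 11.8 CPM in IR-BMT and 1.62, 2.58 and 1.34 CPM in PLX 3x CD0. Tmem119, a membrane protein widely used as a microglial marker (chr5:113793729-113800516, ENSMUSG00000054675), was at 27.0, 23.8 and 22.5 CPM in IR-BMT and 2.65, 5.32 and 2.56 CPM in PLX 3x CD0. Neither gene overlapped between groups, and their log2 differences were 2.85 ± 0.22 for P2ry12 and 2.80 ± 0.25 for Tmem119 (adjusted p = 1.95e-06 and 2.06e-05).

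The purinergic receptor gene P2ry13 differed by 3.92 ± 0.75 (adjusted p = 0.004), and by 5.07 without PLX 3x CD0 2. The 3 genes that did not pass were Gpr84, Sparc and Sall1. Gpr84, a receptor for medium-chain fatty acids, differed by 2.07 ± 0.76 (adjusted p = 0.0608). Sparc, a matrix protein, was at 165, 195 and 212 CPM against 121, 166 and 124 CPM, with overlapping groups. Sall1, a transcription factor of microglia that other brain cells also express, was at 12.9, 18.3 and 18.9 CPM in IR-BMT and 9.00, 26.7 and 11.2 CPM in PLX 3x CD0. The highest and lowest Sall1 values of the 6 were both in PLX 3x CD0, and the log2 difference was 0.10 ± 0.42.

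Of 13 genes of border-associated macrophages, 10 passed the filter on low counts and 5 of these were higher, with none lower and a median of 1.81 (5 and 1.73 with the offset). The share higher over all genes was 10.1%, and 5.30% with the offset. F13a1, the coagulation factor XIII A subunit (chr13:36867178-37050244, ENSMUSG00000039109), was at 4.86, 4.74 and 3.65 CPM in IR-BMT and 0.304, 0.310 and 0.429 CPM in PLX 3x CD0. No library crossed over, with a difference of 3.65 ± 0.29 (adjusted p = 2.91e-07). Mrc1, the mannose receptor, was at 3.37, 2.51 and 2.94 CPM against 0.344, 0.213 and 0.317 CPM, a difference of 3.32 ± 0.39 (adjusted p = 2.23e-05). Stab1, a scavenger receptor, was at 10.2, 10.4 and 10.1 CPM against 1.48, 1.73 and 0.840 CPM, a difference of 2.93 ± 0.25 (adjusted p = 1.17e-06). The 3 genes were thus higher in each IR-BMT library than in each PLX 3x CD0 library. The chemokine Pf4 had 72 counts in the 3 IR-BMT libraries and 2 in the 3 PLX 3x CD0 libraries, a ratio of 52.6 after scaling to the library sizes (95% interval 14 to 443, counting error only). Without PLX 3x CD0 2 its group is left with 0 counts. Small counts in these libraries were mostly even, so counts may not be independent molecules, and this interval and those below are then too narrow. The carbonyl reductase Cbr2 also passed (2.06 ± 0.54, adjusted p = 0.0104). The other 5 tested genes, Cd163, Lyve1, Clec10a, Dab2 and Cd36, did not pass. Cd163, the haemoglobin-haptoglobin receptor, was at 2.62, 1.98 and 2.81 CPM against 2.07, 2.21 and 3.53 CPM (log2 difference -0.08 ± 0.24).

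The list of genes described for macrophages that reach the brain from bone marrow gave 9 higher and 1 lower of 19 tested, of 21 in all, with a median of 0.83 (9, 1 and 1.01 with the offset). All genes gave 10.1% higher and 11.4% lower, and 5.30% and 3.31% with the offset. The count higher was 5 without PLX 3x CD0 3, and 4 without both libraries rich in choroid plexus transcripts. Lyz2, lysozyme M (chr10:117277331-117282321, ENSMUSG00000069516), was at 13.7, 13.5 and 16.2 CPM in IR-BMT and 2.43, 3.07 and 2.26 CPM in PLX 3x CD0, without overlap (log2 difference 2.48 ± 0.37, adjusted p = 0.000735). Ms4a7, a membrane protein of marrow-derived and border macrophages, had 51 counts in the 3 IR-BMT libraries and 5 in the 3 PLX 3x CD0 libraries, a ratio of 14.9 (95% interval 5.99 to 47.9, counting error only). Its fitted log2 difference was 3.79 ± 0.79 (adjusted p = 0.00234), and 4.49 without PLX 3x CD0 1. Cybb, the catalytic subunit of the phagocyte NADPH oxidase, differed by 2.46 ± 0.65, and Cd14, the co-receptor for lipopolysaccharide, by 1.78 ± 0.43 (adjusted p = 0.0123 and 0.00608). The chemokines Ccl8 and Ccl12 passed as well, but Ccl8 rested on 22 counts against 2. Ccr2, the receptor that marks monocytes, was near the limit of detection in both groups, at 0.158, 0.0279 and 0.262 CPM in IR-BMT and 0.142, 0.233 and 0 CPM in PLX 3x CD0. The 1 gene that was lower was Gda, guanine deaminase, which neurons also express, at 55.1, 49.4 and 50.0 CPM in IR-BMT and 73.8, 67.5 and 71.1 CPM in PLX 3x CD0 (log2 difference -0.46 ± 0.07, adjusted p = 0.000247).

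Receptors for immunoglobulin G and complement genes of macrophages were part of the same difference. Of 4 Fc receptor genes tested, the 3 that encode Fc gamma receptors were higher, also with the offset. Among all genes 10.1% were higher, and 5.30% with the offset. Fcgr3 was at 12.3, 9.97 and 8.95 CPM in IR-BMT and 1.90, 2.15 and 1.68 CPM in PLX 3x CD0, with no overlap (log2 difference 2.44 ± 0.17, adjusted p = 7.36e-08). Fcgr2b, the inhibitory receptor, differed by 2.43 ± 0.38 and Fcgr1, the high-affinity receptor, by 2.84 ± 0.52, which was 3.74 without PLX 3x CD0 2 (adjusted p = 0.000205 and 0.000967). Fcgrt, the neonatal Fc receptor, which endothelium also expresses, differed by 0.24 ± 0.12 and did not pass.

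Of 13 complement genes tested, of 14 in all, 6 were higher and none lower, with and without the length and GC offset (median 0.33). The share higher over all genes was 5.30% with the offset and 10.1% without it. C1qb, a chain of the C1q recognition molecule that microglia make in the brain, was at 47.6, 46.7 and 44.3 CPM in IR-BMT and 2.61, 6.62 and 1.70 CPM in PLX 3x CD0. As for Csf1r, PLX 3x CD0 2 was the highest of its group (log2 difference 3.67 ± 0.45, adjusted p = 0.000293, and 4.43 without that library). C1qa and C1qc gave 3.38 ± 0.50 and 3.76 ± 0.51, the latter 4.56 without PLX 3x CD0 2. C5ar1, the receptor for the anaphylatoxin C5a, was at 1.99, 2.17 and 1.65 CPM in IR-BMT and 0.122, 0.116 and 0.0746 CPM in PLX 3x CD0 (log2 difference 4.18 ± 0.37, adjusted p = 7.02e-07). C3ar1, the receptor for C3a, differed by 2.60 ± 0.33. The effector genes did not follow: C3 was at 0.978, 0.557 and 0.997 CPM against 1.24, 0.505 and 0.280 CPM, and C4b at 60.5, 77.1 and 77.8 CPM against 79.0, 124 and 88.8 CPM. The groups overlapped for C3, and for C4b, which astrocytes and oligodendrocytes also express, the log2 difference was -0.44 ± 0.22 (adjusted p = 0.204).

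The IR-BMT level of most of these genes lay between PLX 3x CD0 and NT. Levels are given as percent of the NT mean for each of the 3 treated groups, which share the NT libraries, and the tests of IR-BMT against NT and against PLX 3x CD30 share the IR-BMT libraries with the main comparison. Over all genes and in either direction, 30.6% passed in IR-BMT against NT, 21.7% in PLX 3x CD0 against NT and 16.5% in IR-BMT against PLX 3x CD30. Of the 21780 genes tested, 3365 were below NT past the threshold in IR-BMT and 2075 in PLX 3x CD0. The 25 shared macrophage genes had a median of 8.01% of NT in PLX 3x CD0, 45.8% in PLX 3x CD30 and 54.4% in IR-BMT. In IR-BMT 18 of the 25 were below NT past the threshold, and in PLX 3x CD0 all 25. The 15 microglial genes had medians of 7.60%, 40.0% and 52.9% in the same order, with 9 below NT in IR-BMT and 13 in PLX 3x CD0. Border-associated genes had medians of 30.0%, 70.9% and 85.5% in the same order. Of these 10 genes, 1 was below NT past the threshold in IR-BMT and 7 in PLX 3x CD0. The marrow-derived list had medians of 28.5%, 95.5% and 85.7%, so its highest median was in PLX 3x CD30. Of its 19 genes, 4 were below NT in IR-BMT and 10 in PLX 3x CD0.

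Csf1r was at 165 ± 17.4 CPM in NT (SD, n = 3), 55.0 ± 1.10 CPM in PLX 3x CD30 and 47.5 ± 1.17 CPM in IR-BMT. It was lower in IR-BMT than in NT by a log2 difference of -1.80 ± 0.35 (adjusted p = 0.00278), and IR-BMT and PLX 3x CD30 were not told apart (-0.21 ± 0.34, adjusted p = 0.743). P2ry12 was likewise below NT, at 40.2 ± 2.19 CPM in NT, 11.9 ± 1.38 CPM in PLX 3x CD30 and 13.3 ± 1.43 CPM in IR-BMT (IR-BMT against NT -1.59 ± 0.19, adjusted p = 2.93e-05; against PLX 3x CD30 0.17 ± 0.20, adjusted p = 0.633). F13a1 was close to its NT level in IR-BMT, at 4.41 ± 0.666 CPM against 4.86 ± 1.85 CPM (-0.14 ± 0.24, adjusted p = 0.699), and so was Lyz2, at 14.5 ± 1.54 CPM against 14.0 ± 4.05 CPM (0.03 ± 0.33, adjusted p = 0.955). In PLX 3x CD30 the mean of F13a1 was 73.8% of NT and that of Lyz2 169%, against 90.9% and 103% in IR-BMT.

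None of the 25 shared macrophage genes passed between IR-BMT and PLX 3x CD30, where 16.5% of all genes passed. Of the 15 microglial genes 2 passed, both higher in IR-BMT, a share no larger than that of all genes. Fcrls was at 17.9 ± 1.07 CPM in IR-BMT and 8.73 ± 1.73 CPM in PLX 3x CD30 (SD, n = 3), a log2 difference of 1.04 ± 0.23 (adjusted p = 0.00852). Crybb1, a beta-crystallin gene that marks microglia, was at 3.63, 2.67 and 3.20 CPM in IR-BMT, at 0.405, 0.466 and 0.317 CPM in PLX 3x CD0 and at a mean of 1.00 ± 0.352 CPM in PLX 3x CD30. Each IR-BMT library was above the PLX 3x CD0 libraries by far (2.99 ± 0.27, adjusted p = 8.96e-07), and the difference to PLX 3x CD30 was 1.65 ± 0.25 (adjusted p = 0.000295). Both genes passed against PLX 3x CD30 with the length and GC offset as well, at 1.11 for Fcrls and 1.35 for Crybb1 (adjusted p = 0.0127 and 0.0038).

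**Figure D3:**
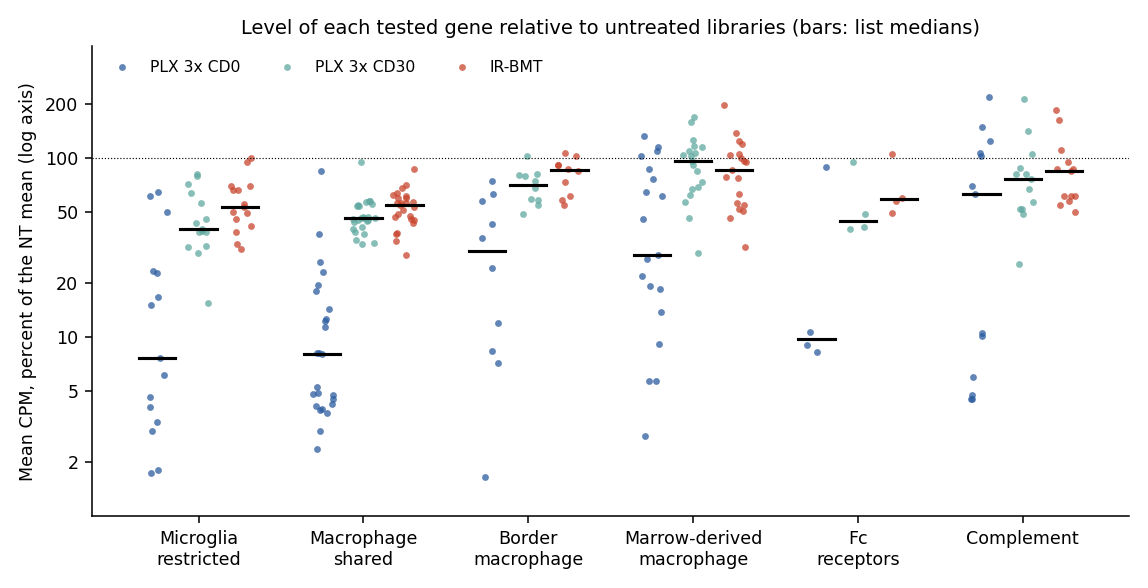
Mean level of each tested gene of the macrophage lists as a percent of the NT mean in PLX 3x CD0, PLX 3x CD30 and IR-BMT, on a log axis. Each point is a gene, the bars are list medians and the dotted line is the NT mean; for the shared macrophage genes the medians are 8.01%, 45.8% and 54.4%.

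Genes of antigen presentation were higher in part, where 10.1% of all genes were higher, and 5.30% with the offset. Of 8 class II genes tested, 4 were higher (median 1.58), but 1 or 2 remained past the threshold without PLX 3x CD0 1, 2 or 3 or without IR-BMT 3, and 2 with the length and GC offset. H2-Eb1, a class II beta chain, passed in each of these fits. It was at 2.49, 2.70 and 3.59 CPM in IR-BMT and 0.831, 1.14 and 1.29 CPM in PLX 3x CD0, without overlap (log2 difference 1.43 ± 0.34, adjusted p = 0.00543). Cd74, the invariant chain, was at 12.2, 11.5 and 13.5 CPM against 3.22, 3.92 and 3.51 CPM, also without overlap (1.80 ± 0.46, adjusted p = 0.0166, and 0.0654 with the offset). Of 16 class I genes 5 were higher (median 0.26), 3 with the offset. Among them Psmb10, an immunoproteasome subunit, was at 50.2, 51.8 and 50.0 CPM against 34.5, 36.3 and 35.0 CPM (0.52 ± 0.06, adjusted p = 2.29e-05). B2m, the light chain of class I molecules, was at 51.5, 45.9 and 43.9 CPM against 37.3, 37.6 and 34.5 CPM (0.37 ± 0.10, adjusted p = 0.0112).

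Genes induced by interferon were not higher as a group: of 36 tested none was higher and 1, Stat2, was lower, with a median of -0.08 and the same counts with the offset. Stat2, a transcription factor of the type I interferon response, was at 30.1, 27.9 and 27.0 CPM in IR-BMT and 33.2, 36.3 and 34.1 CPM in PLX 3x CD0 (-0.29 ± 0.09, adjusted p = 0.0208), and did not pass without PLX 3x CD0 2, IR-BMT 2 or IR-BMT 3. Of 18 tested genes of disease-associated microglia, of 21 in all, 5 were higher and 1 lower (median 0.08), and 3 and none with the offset. Over all genes 10.1% were higher and 11.4% lower, and 5.30% and 3.31% with the offset. Cd68, a lysosomal protein of phagocytes, led them at 9.84, 11.4 and 10.4 CPM against 3.79, 5.84 and 4.59 CPM, without overlap (1.15 ± 0.15, adjusted p = 4.42e-05). Clec7a and Cst7, 2 genes that define this microglial state, were low in both groups, at 0.0946 to 0.157 and 0.167 to 0.378 CPM in IR-BMT and at 0.101 to 0.243 and 0.0373 to 0.349 CPM in PLX 3x CD0. Of 17 tested genes of innate sensing and cytokines, of 21 in all, 3 were higher and 1 lower, and 3 and none with the offset. The 3 were Tgfb1, a cytokine that maintains microglia (1.34 ± 0.22, adjusted p = 0.000299), Tlr7 and Tlr13, sensors of nucleic acids. Tlr7 (1.53 ± 0.53, adjusted p = 0.0452) lost its call in 6 alternatives and was 2.56 without PLX 3x CD0 1, and Tlr13 (2.56 ± 0.63, adjusted p = 0.00903) lost it without IR-BMT 2 and was 4.34 without PLX 3x CD0 2.

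Markers of other blood cells gave little. Of 10 neutrophil markers 5 could be tested and none passed (median 0.40). Their summed level was 1.07 to 2.60 CPM in IR-BMT and 0.770 to 2.70 CPM in PLX 3x CD0, and the defining marker Ly6g had 0 counts in the 3 IR-BMT libraries. Of 19 lymphocyte markers 11 were tested and 2 were higher, 1 of them with the offset, against 10.1% and 5.30% of all genes. Their summed level was 76.9 to 83.0 CPM in IR-BMT and 56.2 to 79.3 CPM in PLX 3x CD0, and the B cell marker Ms4a1 had 0 counts in all 6. Ighm, the heavy chain of IgM, was at 41.9, 40.9 and 31.0 CPM in IR-BMT and 26.0, 18.8 and 16.6 CPM in PLX 3x CD0, without overlap (0.89 ± 0.16, adjusted p = 0.00177). Its NT level was 36.9 to 46.8 CPM. The other, Cd79b, had 17 counts against 3, a ratio of 8.28 (95% interval 2.40 to 44.1, counting error only). Its call was lost in 5 alternatives, the offset among them, and its fitted log2 difference moved from 2.85 to 5.76 without PLX 3x CD0 1. None of 6 tested erythrocyte markers passed in either fit, nor did a neutrophil marker with the offset.

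**Figure D4:**
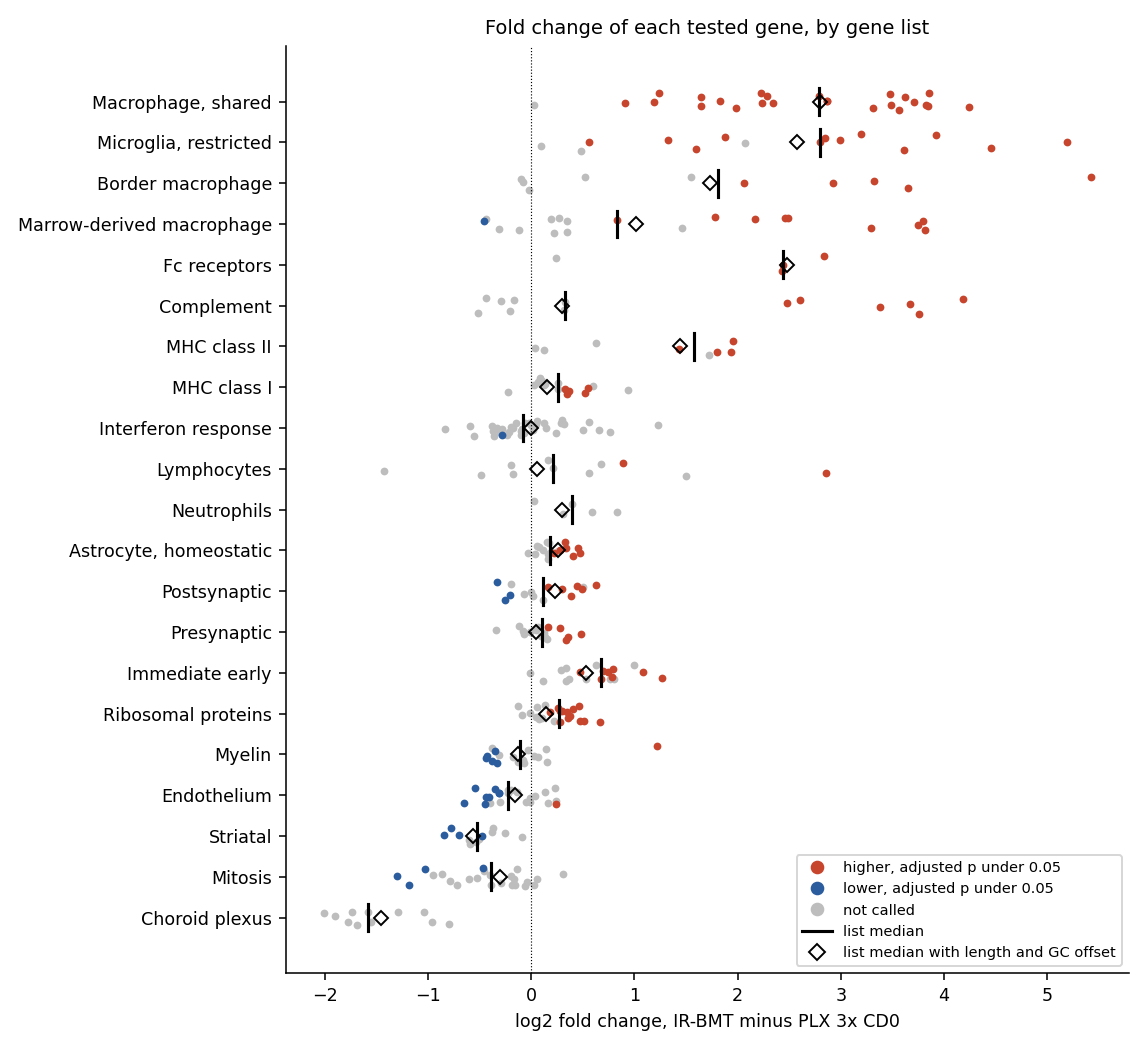
Log2 difference between IR-BMT and PLX 3x CD0 of each tested gene (point) in 21 lists, red where higher and blue where lower past the threshold and grey where not called; lines are list medians and diamonds the medians with the length and GC offset. The shared macrophage genes have a median of 2.79 and the microglial genes 2.80, while the medians of the astrocyte, synaptic and myelin lists are far closer to 0.

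Among the cells of the brain tissue itself, homeostatic astrocyte genes were higher in IR-BMT. Of 18 tested, 7 were higher and none lower (median 0.18), and 7 were higher with the offset (median 0.26). All genes gave 10.1% higher, and 5.30% with the offset. Sox9, a transcription factor of astrocytes, was at 115, 118 and 118 CPM in IR-BMT and 95.9, 77.1 and 80.0 CPM in PLX 3x CD0. The groups did not overlap, and the difference was 0.47 ± 0.08 (adjusted p = 0.000397). Slc1a2, the main glutamate transporter, was at 557, 525 and 535 CPM against 439, 386 and 458 CPM (0.33 ± 0.07, adjusted p = 0.00203). Both were lower in PLX 3x CD0 than in NT (-0.36 ± 0.08 and -0.44 ± 0.07, adjusted p = 0.00291 and 0.000137), and IR-BMT was not told apart from NT (0.11 ± 0.08 and -0.11 ± 0.07, adjusted p = 0.336 and 0.249). Fgfr3, a growth factor receptor of astrocytes, and Aldoc, a glycolytic aldolase, differed by 0.45 ± 0.08 and 0.41 ± 0.07. Reactive astrocyte genes gave 2 of 18 higher (11.1%, near the 10.1% of all genes) and none with the offset. Gfap, the intermediate filament of reactive astrocytes, was at 277, 365 and 377 CPM against 242, 405 and 284 CPM, with overlapping groups (0.13 ± 0.22, adjusted p = 0.741).

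Postsynaptic genes differed in both directions. Of 15 postsynaptic genes 6 were higher and 3 lower (median 0.11), and 6 and none with the offset. The shares of all genes were 10.1% and 11.4%, and 5.30% and 3.31% with the offset. Shank1, a scaffold of the postsynaptic density, was at 204, 188 and 191 CPM in IR-BMT and 138, 116 and 123 CPM in PLX 3x CD0, without overlap (0.63 ± 0.07, adjusted p = 8.99e-06). Its partners Shank3 and Dlg4, which encodes PSD-95, differed by 0.45 ± 0.07 and 0.39 ± 0.06 (adjusted p = 0.000163 and 0.000108). Camk2a, the kinase subunit of excitatory synapses, was at 2205, 2129 and 2079 CPM against 1556, 1339 and 1653 CPM (0.50 ± 0.09, adjusted p = 0.000478). Camk2a was also above NT in IR-BMT (0.54 ± 0.09, adjusted p = 0.000122), and PLX 3x CD0 was not told apart from NT (0.04 ± 0.08, adjusted p = 0.788). The 3 lower genes were Grm5, Gria2 and Gria3, glutamate receptor subunits, at -0.34 ± 0.07, -0.26 ± 0.05 and -0.20 ± 0.07, and none of them passed with the offset. Of 16 presynaptic genes 5 were higher and none lower, and 3 with the offset; Rims1, of the active zone, gave 0.33 ± 0.08 (adjusted p = 0.00396).

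Immediate early genes, which neurons switch on within minutes of activity, were higher in 8 of 19, with none lower (median 0.67). In 17 of the 19 each IR-BMT library was above each PLX 3x CD0 library, which held for 4081 of the 21780 genes tested; 10.1% of all genes were called higher. With the offset 3 passed, where 5.30% of all genes were higher. Without IR-BMT 3 the count was 5, and without both libraries rich in choroid plexus transcripts it was 4. A fit on the 6 libraries alone gave 15. Jun, a subunit of the AP-1 factor, was at 98.4, 91.4 and 101 CPM in IR-BMT and 70.8, 68.3 and 70.3 CPM in PLX 3x CD0 (0.48 ± 0.07, adjusted p = 0.000158). Its NT mean was 64.7 ± 7.36 CPM (SD, n = 3). Fosb, another AP-1 subunit, was at 8.54, 8.39 and 10.0 CPM against 5.02, 5.55 and 5.56 CPM (0.74 ± 0.20, adjusted p = 0.0104). Jun, Fosb and the nuclear receptor gene Nr4a3 (0.67 ± 0.18, adjusted p = 0.0133) were the 3 that passed with the offset. Egr4, a zinc finger factor, was at 159, 149 and 141 CPM against 66.4, 66.6 and 79.7 CPM (1.08 ± 0.19, adjusted p = 0.00224, and 0.0819 with the offset).

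Genes of myelin and vessels were lower more often than higher. Of 18 myelin genes 5 were lower and 1 higher (median -0.11; 11.4% of all genes lower), and 3 were lower with the offset, Mal and Mog among them. Mal, a myelin proteolipid, was at 79.0, 83.9 and 86.5 CPM in IR-BMT and 108, 109 and 118 CPM in PLX 3x CD0. Mog, at the outer surface of myelin, was at 43.0, 41.5 and 45.7 CPM against 55.5, 55.0 and 59.0 CPM. Neither overlapped, and they differed by -0.42 ± 0.08 and -0.38 ± 0.08 (adjusted p = 0.00086 and 0.00259). Mbp, myelin basic protein, did not differ past the threshold (0.02 ± 0.07, adjusted p = 0.846). In cells of the lineage before myelination, 4 of 14 precursor genes were higher and 2 lower, and 2 and none with the offset. For the counts of this paragraph, the shares of all genes were 10.1% higher and 11.4% lower, and 5.30% and 3.31% with the offset. Olig2, the lineage transcription factor, was at 30.1, 27.0 and 33.1 CPM in IR-BMT and 19.0, 19.8 and 17.7 CPM in PLX 3x CD0, without overlap (0.68 ± 0.10, adjusted p = 7.86e-05).

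Of 23 endothelial genes 8 were lower and 1 higher (median -0.23), and 5 were lower with the offset. Over all genes 11.4% were lower, and 3.31% with the offset. Without PLX 3x CD0 1 the count lower was 5. Slco1a4, a transporter of the blood-brain barrier, was at 31.7, 32.3 and 27.4 CPM in IR-BMT and 45.4, 45.6 and 42.3 CPM in PLX 3x CD0. All IR-BMT libraries were lower (-0.54 ± 0.07, adjusted p = 3.42e-05), and NT was at 42.5 ± 1.65 CPM (SD, n = 3). Ocln, a tight junction protein, was at 7.35, 7.52 and 6.90 CPM against 12.6, 10.9 and 10.7 CPM (-0.65 ± 0.11, adjusted p = 0.000478). Ly6c1, a surface antigen of brain endothelium, differed by -0.45 ± 0.09 (adjusted p = 0.00201). Cldn5, the main claudin of the barrier, was at 33.1, 36.9 and 35.5 CPM against 36.4, 36.5 and 33.6 CPM, with overlap. Among 11 mural cell genes 1, Rgs5, was lower (9.09%, near the 11.4% of all genes), and none with the offset. None of 18 meningeal fibroblast genes passed in either fit.

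Striatal genes were lower in part. Of 12 tested, 4 were lower and none higher (median -0.52), and 2 with the offset, against 11.4% and 3.31% of all genes lower. Their summed level was 1662 to 2530 CPM in IR-BMT and 2372 to 3528 CPM in PLX 3x CD0. The count moved with single libraries, from 1 to 8 when each was left out, the highest without IR-BMT 3. Pdyn, prodynorphin, was at 43.6, 44.4 and 60.4 CPM in IR-BMT and 78.3, 83.2 and 80.3 CPM in PLX 3x CD0, without overlap (-0.70 ± 0.14, adjusted p = 0.00338). Drd1, the D1 dopamine receptor, was at 68.5, 69.3 and 105 CPM against 117, 129 and 169 CPM (-0.77 ± 0.21, adjusted p = 0.0245), and did not pass with the offset. None of 10 thalamic or 8 hypothalamic genes passed, and with the offset 1 thalamic gene was higher and 1 lower. The part of dissection in the neuronal differences was not tested.

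Genes of cell division and DNA damage were examined because irradiation is known to act on both. Of 24 mitosis genes 4 (16.7%, against 11.4% of all genes) were lower and none higher (median -0.40). None of the 4 passed with the offset, none without PLX 3x CD0 1 or without IR-BMT 2, and 1 or 2 without PLX 3x CD0 2 or IR-BMT 3. Mki67, the proliferation antigen, was at 0.631, 0.446 and 0.262 CPM in IR-BMT and 1.24, 1.24 and 0.784 CPM in PLX 3x CD0, without overlap (-1.30 ± 0.37, adjusted p = 0.0174, and 0.0645 with the offset). Top2a, the topoisomerase of dividing cells, was at 0.757, 0.557 and 0.682 CPM against 1.88, 0.970 and 1.21 CPM (-1.02 ± 0.28, adjusted p = 0.0121, and 0.0756 with the offset). Of 25 genes of DNA replication 3 were higher and 1 lower, none with the offset. The shares of all genes were 10.1% higher and 11.4% lower, and 5.30% and 3.31% with the offset. Of 20 genes of newborn neurons 1 was higher and 2 lower, and none and 1 with the offset. Dcx, which marks them, was at 15.5, 16.1 and 15.4 CPM against 18.3, 31.9 and 18.7 CPM and did not pass (-0.55 ± 0.29, adjusted p = 0.214). Of 20 tested p53 targets 1 was higher and 3 lower, and 1 and 1 with the offset, none of them called in both fits. Cdkn1a, which encodes p21, was at 28.6, 31.7 and 30.4 CPM against 20.1, 31.1 and 18.0 CPM, with overlap (0.39 ± 0.30, adjusted p = 0.427). Both Dcx and Cdkn1a passed in the fit with no filter on low counts (adjusted p = 1.02e-06 and 0.00108), at log2 differences of -0.57 and 0.37.

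Of housekeeping groups, 13 of 22 ribosomal protein genes were higher and none lower (median 0.27), but 3 with the offset, and 7 without PLX 3x CD0 1, PLX 3x CD0 3 or IR-BMT 2. For all counts of this paragraph, the shares of all genes were 10.1% higher and 11.4% lower, and 5.30% and 3.31% with the offset. Rps29 was at 47.7, 56.6 and 56.5 CPM in IR-BMT and 31.6, 36.1 and 34.0 CPM in PLX 3x CD0, and passed in both fits (0.66 ± 0.08, adjusted p = 1.94e-05). Of 20 nuclear genes of the respiratory chain 8 were higher and 2 lower, and 4 and 2 with the offset. Uqcrb, of complex III, was at 38.5, 29.3 and 34.4 CPM against 53.2, 52.3 and 50.1 CPM (-0.61 ± 0.07, adjusted p = 1.9e-05), while Ndufa2, of complex I, was higher (0.53 ± 0.07, adjusted p = 2.73e-05). Of 13 mitochondrially encoded genes 3 were lower and none higher, and 1 and 1 with the offset. Among them mt-Nd1 was at 461, 345 and 364 CPM against 584, 510 and 614 CPM (-0.55 ± 0.09, adjusted p = 0.000539). Of 20 lysosomal genes 5 were higher and 1 lower, and 4 and none with the offset, led by Ctsz, cathepsin Z (0.61 ± 0.10, adjusted p = 0.000386). Of 20 genes of cholesterol synthesis 2 were higher and 6 lower, with 3 lower and none higher under the offset. Sqle, squalene epoxidase, was at 100, 88.3 and 88.1 CPM against 127, 108 and 120 CPM, without overlap (-0.36 ± 0.07, adjusted p = 0.00109).

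The 12 largest rises among genes at an average log2 CPM of 1 or more were all members of the macrophage, microglial, border or complement lists: Fcrls, Siglech, Cd53, P2ry13, Cx3cr1, Selplg, Laptm5, C1qc, Fcer1g, C1qb, F13a1 and Spi1. The largest falls, chosen by the same limit among called genes whose groups did not overlap, were near 2-fold, and those named here belonged to no list. Choroid plexus genes had a lower median (-1.58) but were not called. Stk26, a kinase of the STE20 family, was at 4.51, 4.37 and 5.35 CPM in IR-BMT and 9.71, 8.38 and 11.3 CPM in PLX 3x CD0 (-1.04 ± 0.16, adjusted p = 0.000167). Tbca, a tubulin folding cofactor, was at 6.43, 4.93 and 5.46 CPM against 10.5, 9.70 and 12.5 CPM (-0.96 ± 0.16, adjusted p = 0.000386). Zfp943, a zinc finger gene, was at 7.32, 5.24 and 5.51 CPM against 12.3, 10.1 and 11.7 CPM (-0.92 ± 0.13, adjusted p = 0.000101). Each of these 3 genes was lower in every IR-BMT library than in every PLX 3x CD0 library, which the choice of genes without overlap required. The melanocortin receptor gene Mc4r fell by 0.96 ± 0.24 on the log2 scale.

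**Figure D5:**
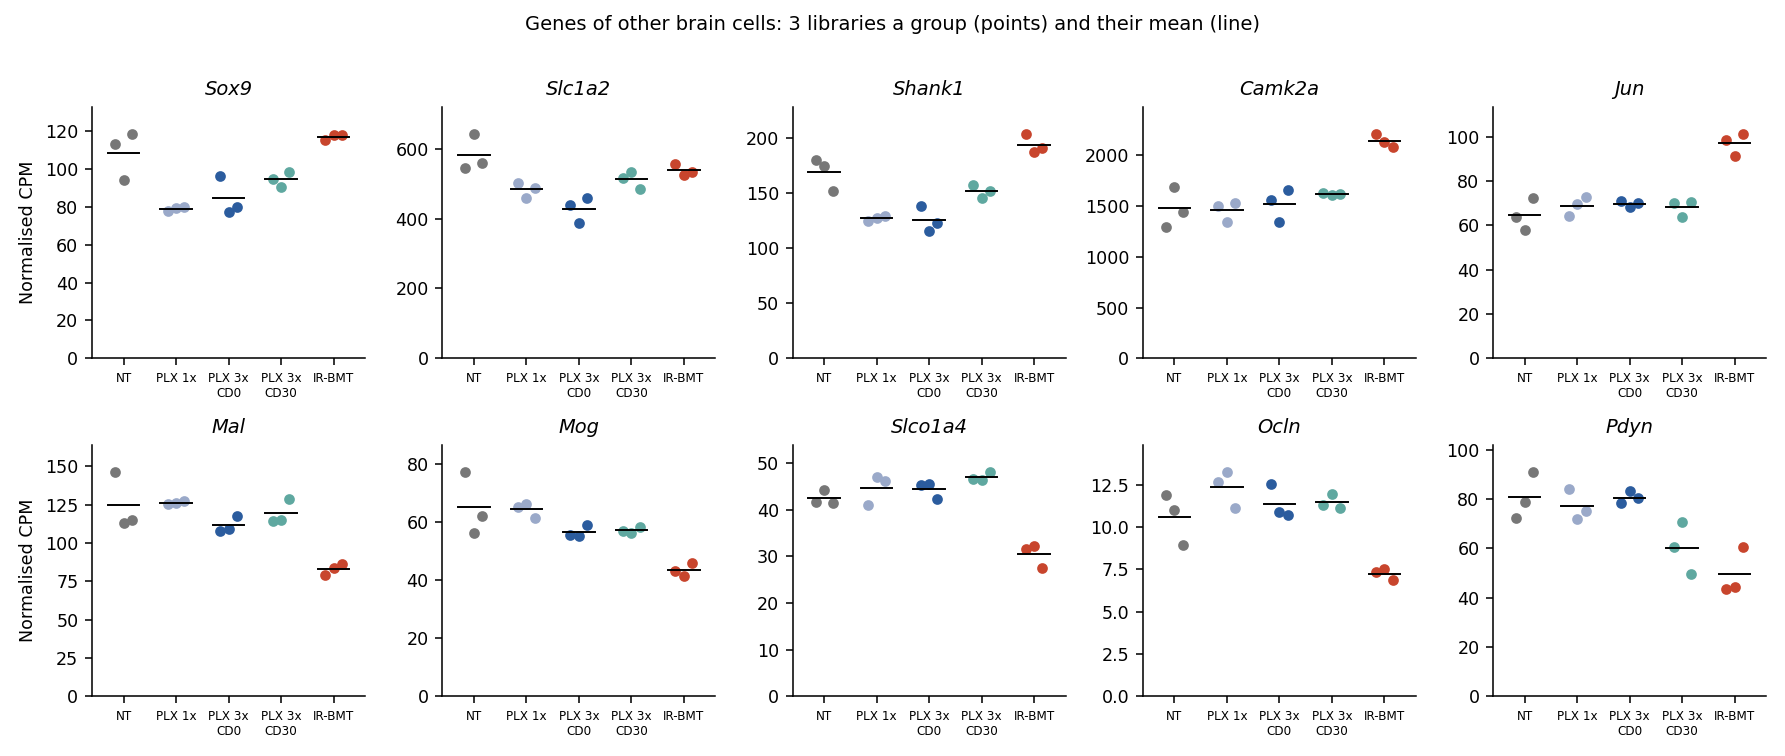
Levels of 10 genes of other brain cells in the 5 groups, in TMM-normalised CPM on linear axes that start at 0. Each point is 1 library and the line is the mean of 3; Sox9, Slc1a2, Shank1, Camk2a and Jun are higher in every IR-BMT library than in every PLX 3x CD0 library, and Mal, Mog, Slco1a4, Ocln and Pdyn are lower.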

How the data were processed

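Total RNA (RNeasy Lipid Tissue kit, SMARTer Ultra Low cDNA, which does not mark strand; paired-end NovaSeq-6000) was processed with DRAGEN and DESeq2 on mm10, per the submitters' processing notes. Of the annotation and the counting mode, nothing is given in the sources used here. The authors deposited raw counts per gene; 70.6 to 74.7% of counts between 1 and 4 were even in each library. Repeated rows of an identifier (287) were removed from 55774, and 55227 of 55487 identifiers matched GENCODE M21.

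edgeR 4.0.16 in R 4.3.3 (TMM, filterByExpr, robust quasi-likelihood fit, 1 mean per group, all 15 libraries, biological CV 12.1%) tested 21780 genes. Adjusted p-values are Benjamini-Hochberg over all genes tested. Standard errors are those implied by the F statistic, and levels are TMM-normalised CPM. Total counts of all libraries ran from 19249641 to 54801136. Alternatives were DESeq2 1.42.0, other scaling, filters, the 6 libraries alone, a replicate block, a length and GC offset, and leaving out each library. Leaving out both libraries rich in choroid plexus transcripts was added after the data were seen. The main edgeR fit, but none of the alternatives, was tested on simulated counts, which held no length or GC trend. The genes and lists were chosen with earlier results of these data known. Named genes were the 12 largest rises and falls with average log2 CPM of at least 1 and no overlap between groups, up to 4 called members per list by adjusted p, and fixed markers; other members, among them those that did not pass, were named after their values were seen. Promoters are from RefSeq. Some members of the lists are not reported here.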

Additional observations from a re-analysis of the deposited data

How the results depend on the processing

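The count of genes called between IR-BMT and PLX 3x CD0 was 4687, and it was 5096 with DESeq2, 4598 with RLE size factors, 4742 with no filter on low counts, 4951 with a filter of 1 CPM in 3 libraries and 4945 with the 6 libraries fitted alone. It was 1876 with the length and GC offset, 1154 higher and 722 lower, and the cause was not tested. Leaving out 1 library at a time gave 3029 (without IR-BMT 2) to 4441, with 1564 to 2375 lower. For the reference comparisons, PLX 3x CD0 against NT gave 2601 with the 6 libraries alone, and IR-BMT against PLX 3x CD30 gave 1193 with the offset and 1975 (without IR-BMT 2) to 3526 with 1 library left out. Of the named genes that were called, 4 changed sign, all with the offset: Rab3a to -0.0193, Etv1 to 0.035, Nr1d2 to 0.0387 and mt-Nd5 to 0.0195 on the log2 scale. Gfap and Mbp, which were not called, also crossed 0, at lowest -0.0151 and -0.0075.

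With the replicate number as a block 4517 genes were called, 4420 of them the same genes in the same direction. The libraries of the same number correlated at 0.226, 0.123 and 0.015 in their deviations from the group means, and those of different numbers at -0.225 to 0.131. The labels do not say that equal numbers are pairs, and the main fit did not take them as pairs. These few values cannot decide it.

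Genes with few counts in PLX 3x CD0, such as Pf4, Ms4a7, Ccl8 and Cd79b, are limited by counting error. Their intervals leave out the spread between libraries and are too narrow if both mates of a pair were counted.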

Other observations

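The genes of this paragraph and the next are outside every list and were chosen after their values were seen. At an average log2 CPM of 1 or more, 61 such genes were at least 2-fold higher in IR-BMT than in PLX 3x CD0 and called with and without the length and GC offset, of which 48 were named protein-coding genes. The other 13 were pseudogenes, RNA genes or unnamed models. The 5 genes named next are known from myeloid cells. Adgre1, which encodes the macrophage antigen F4/80, was at 3.41, 3.93 and 2.81 CPM in IR-BMT and 0.243, 0.310 and 0.336 CPM in PLX 3x CD0 (log2 difference 3.49 ± 0.40, adjusted p = 2.59e-05). Cd33, an inhibitory lectin of myeloid cells, differed by 3.36 ± 0.36, Itgb2, the beta chain of leukocyte integrins, by 2.78 ± 0.28, and Mpeg1, the pore-forming perforin-2, by 2.44 ± 0.29. Pld4, an endolysosomal nuclease of myeloid cells, was at 8.26, 7.41 and 6.82 CPM against 0.729, 1.22 and 0.970 CPM (2.94 ± 0.24, adjusted p = 7.02e-07). For these 5 genes IR-BMT stayed below NT past the threshold.

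In 12 of the 48 IR-BMT was above NT past the threshold and in 20 below. Of all 21780 genes tested, 3293 were above NT and 3365 below. The 48 had been chosen as higher in IR-BMT than in PLX 3x CD0, so their counts are not comparable with those of all genes. Ccn1, a matricellular protein, was at 34.3, 29.6 and 29.3 CPM in IR-BMT, 12.6, 10.8 and 15.9 CPM in PLX 3x CD0 and 11.8, 11.1 and 19.9 CPM in NT. The IR-BMT libraries were above all 6 others (1.25 ± 0.21 against PLX 3x CD0, adjusted p = 0.00114; 1.10 against NT, adjusted p = 0.00165). Pou3f1, a transcription factor of neurons and myelinating glia, was at 75.3, 88.5 and 78.5 CPM against 35.2, 27.6 and 37.5 CPM, with NT at 44.2 to 60.4 CPM (1.27 ± 0.13, adjusted p = 2.75e-05). Zfp771, a zinc finger gene, had a difference of 1.45 ± 0.08 (adjusted p = 7.95e-09).

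Of 374 tested genes with a symbol of the form Zfp and a number, 116 (31.0%) were lower and 30 higher, against 11.4% of all genes lower, with a median log2 difference of -0.23 (all genes -0.02). With the length and GC offset 24 (6.42%) were lower and 16 higher, against 3.31% of all genes lower, and the median was -0.09. Of the 46 on chromosome 17, 22 were lower and 4 higher, and 5 and 2 with the offset. Whether members share reads was not tested.

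Of 2553 processed pseudogenes tested, 214 (8.38%) were higher and 10 (0.392%) lower, against 10.1% and 11.4% of all genes. Their median log2 difference was 0.26 (all genes -0.02), and 0.14 with the offset (all genes -0.01). With the offset 84 (3.29%) were higher and 5 (0.196%) lower, against 5.30% and 3.31% of all genes. Whether they share reads with their parent genes was not tested.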
